A study of Mus musculus with 9 samples.

Results

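Cartilage-type genes of the fibrous body and heart valves were followed in 9 RNA-seq libraries of microdissected mouse atrioventricular (AV) nodes, the tissue that delays the impulse between atria and ventricles. They were the 8 listed symbols Cytl1, Comp, Chad, Fmod, Acan, Prg4, Cilp and Sox9, out of 34198 symbols measured, and all 8 passed a filter that 12925 genes passed, 1 CPM or more in at least 3 libraries, where CPM is the read count scaled to a common library size. Cytl1 was selected on its CPM values, as the one gene called lower in nodes of Cx3cr1 Cx43-/- mice than in control nodes, so its levels are given as a description, without a test. The other 7 were named by symbol.

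Each group held 3 libraries, all of strain C57BL/6J. Libraries 7 to 9 came from macrophage-depleted nodes of Cd11bDTR mice, which carry a diphtheria toxin receptor under the promoter of CD11b, an integrin of monocytes, macrophages and other myeloid cells. Libraries 4 to 6 came from Cx3cr1 Cx43-/- mice, in which connexin 43 (Gja1) is deleted in cells that express the fractalkine receptor Cx3cr1, a gene of macrophages and monocytes. Libraries 1 to 3 came from mice labelled control. Toxin dose, timing, sex, age, the form of the Cre driver and the alleles carried by control mice are not given in the sources used here, and neither is pooling of mice. The p-values therefore measure only the spread between these libraries.

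Cartilage matrix is built from a collagen network filled with the proteoglycan aggrecan and bound together by adaptor proteins such as thrombospondins and leucine-rich repeat proteins. The transcription factor Sox9 directs chondrocyte formation and switches on many of these matrix genes, and it is also required for heart valve formation. Valve leaflets and the fibrous skeleton of the heart, to which the AV node lies close, hold a matrix that shares several of these components with cartilage and tendon.

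The conduction genes Hcn4 (15.5 to 19.3 CPM in control), Tbx3 and Cacna2d2 were present in every library, while Isl1 was under the filter. In macrophage-depleted libraries 12 of 13 tested macrophage markers fell, where 33.0% of all genes did. The summed level of the markers was 65.5 to 77.7 CPM against 297 to 478 CPM in control. Itgam, which encodes CD11b and whose promoter drives the toxin receptor, stood at 9.72, 2.34 and 7.35 CPM in depleted libraries, against 8.93, 1.64 and 5.37 CPM in control, with overlap (log2 change 0.31, limma adjusted p = 0.591). Cx3cr1 fell with depletion on the deposited scale (limma adjusted p = 0.0105), a call lost with median-of-ratios scaling (adjusted p = 0.134). Gja1 fell with depletion (89.9, 56.8 and 68.3 CPM in depleted libraries, against 246, 163 and 211 CPM in control, limma adjusted p = 2.47e-05), but in whole Cx3cr1 Cx43-/- nodes it stood at 179, 229 and 250 CPM (limma adjusted p = 1 against control), so the label could not be checked at this level. Genes of the file took 28.3% to 44.0% of the CPM denominator in depleted, 46.8% to 47.9% in Cx3cr1 Cx43-/- and 42.8% to 48.7% in control libraries. Across the 12925 genes, as deposited, the median of the log2 changes was -0.49 for depleted against control and 0.072 for Cx3cr1 Cx43-/- against control.

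Defining genes of hyaline cartilage were low. The collagen gene Col2a1 stood at 5.13, 2.80 and 3.60 CPM in depleted and at 2.16, 0.00 and 1.03 CPM in control libraries, and Matn1 was listed at 0 in all 3 control libraries. The data do not tell which cells of the dissection held the 8 transcripts.

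The sequences upstream of Cytl1, Chad and Fmod are shown because these genes had the lowest levels in depleted relative to control nodes among the 8. They are the 250 bases before the gene start in the RefSeq table of build GRCm38.p6, all on the plus strand. The authors' build was mm9, and the windows were found by symbol, not by coordinate. Capitals mark a TATAAA match.
Cytl1 (chr5:37735269-37735518): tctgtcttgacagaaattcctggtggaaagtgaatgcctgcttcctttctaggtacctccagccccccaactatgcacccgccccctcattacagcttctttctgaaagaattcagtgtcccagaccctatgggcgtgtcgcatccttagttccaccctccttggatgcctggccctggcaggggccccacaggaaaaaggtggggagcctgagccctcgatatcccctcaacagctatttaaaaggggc
Chad (chr11:94564797-94565046): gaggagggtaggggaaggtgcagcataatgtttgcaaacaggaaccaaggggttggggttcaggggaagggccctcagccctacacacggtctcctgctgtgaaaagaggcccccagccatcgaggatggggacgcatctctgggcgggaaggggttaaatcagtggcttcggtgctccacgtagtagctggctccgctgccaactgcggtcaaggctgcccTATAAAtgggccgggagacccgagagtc
Fmod (chr1:134037004-134037253): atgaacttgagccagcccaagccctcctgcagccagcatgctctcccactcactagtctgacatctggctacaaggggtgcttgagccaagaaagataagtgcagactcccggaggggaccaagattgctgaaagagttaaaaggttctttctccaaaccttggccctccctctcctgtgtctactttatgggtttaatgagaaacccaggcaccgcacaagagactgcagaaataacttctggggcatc

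Entries existed for 5 of the 8 genes, those above and Acan and Cilp. Comp, Sox9 and Prg4 had none. The letters ACAAAG and ACAATG, core motifs of SOX factors, were searched on both strands. Of these 5 windows 0 held either, against 25.2% of 32851 windows of the same length. TATAAA on either strand was found in the Chad window, 28 bases before the start, and in 12.4% of all windows.

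Per length, Cytl1 was the most abundant of the 8 transcripts in control nodes. Its level was 211 ± 23.0 CPM per kilobase of exon (SD, n = 3), followed by Comp at 94.0 ± 25.7, Chad at 79.9 ± 26.3 and Fmod at 51.3 ± 12.6 CPM per kilobase. Prg4 stood at 24.1 ± 3.75, Cilp at 19.8 ± 3.58, Sox9 at 2.38 ± 0.697 and Acan at 0.499 ± 0.147 CPM per kilobase in control. Neighbours in this order whose libraries overlapped were Comp and Chad, Chad and Fmod, and Prg4 and Cilp. In Cx3cr1 Cx43-/- nodes Cytl1 was again first (90.4 ± 16.8 CPM per kilobase), above Comp (61.6 ± 2.33), without overlap of their libraries. In depleted nodes Prg4 came first at 151 ± 58.8 CPM per kilobase, with Comp at 51.3 ± 5.87 and Cytl1 at 49.4 ± 3.10, whose libraries overlapped. Lengths are the merged exons of GENCODE M21, which need not be the authors' gene models.

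**Figure D1:**
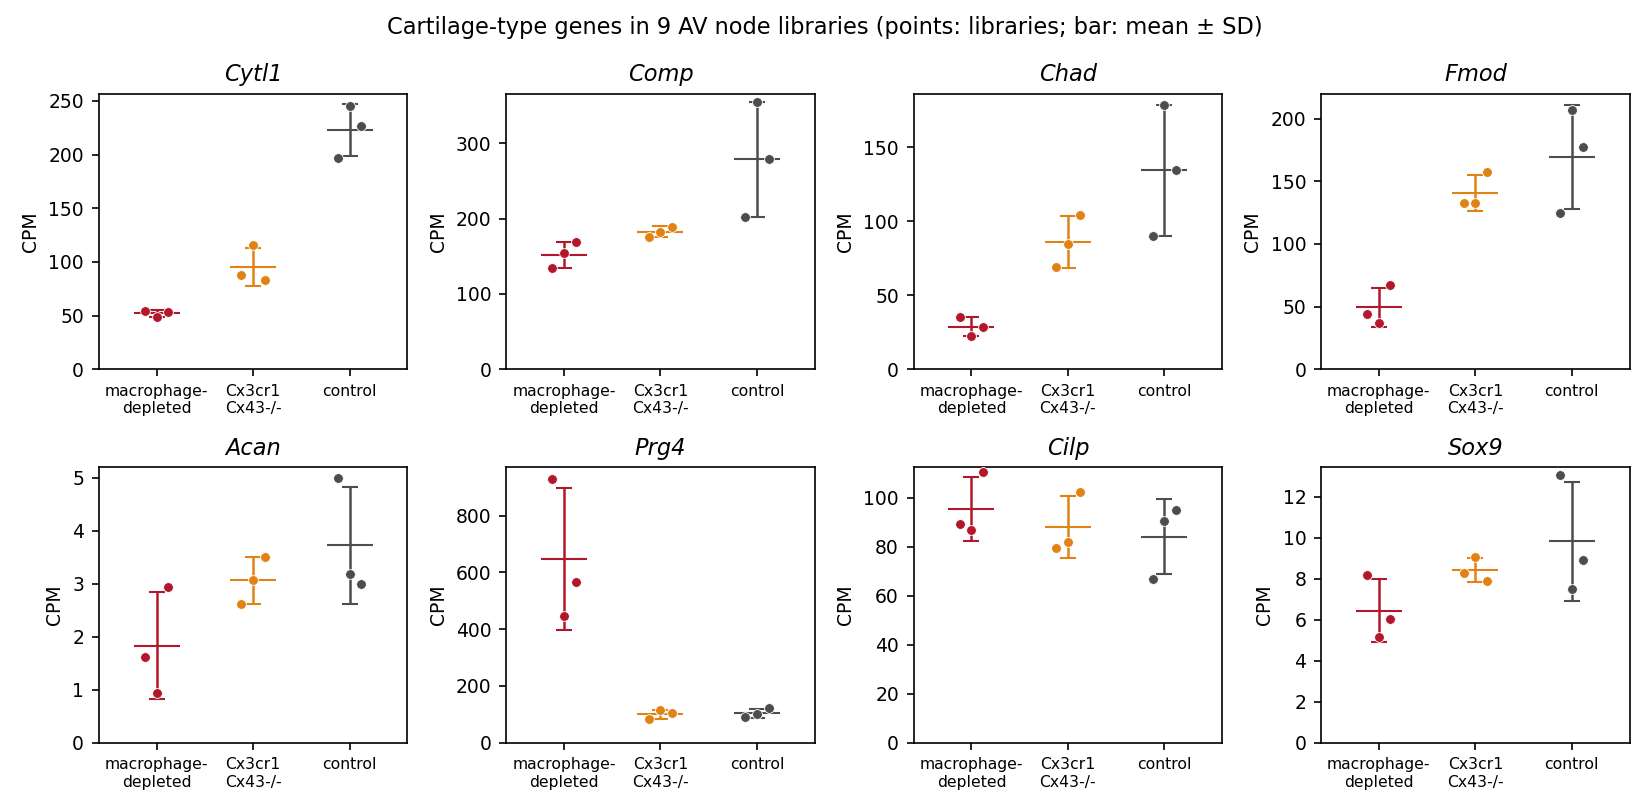
CPM of the 8 genes (vertical axes, each from 0) in macrophage-depleted, Cx3cr1 Cx43-/- and control nodes, with a point for each library and a bar for the mean ± SD of 3. Cytl1 lies at 48.4 to 54.6 CPM in depleted, 83.2 to 116 CPM in Cx3cr1 Cx43-/- and 197 to 245 CPM in control libraries, and Prg4 is high in the depleted libraries alone, at 446 to 929 CPM.

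Cytl1 encodes a small secreted cytokine-like protein made by chondrocytes. It stood at 54.6, 48.4 and 53.5 CPM in depleted libraries 7 to 9, at 87.4, 116 and 83.2 CPM in Cx3cr1 Cx43-/- libraries 4 to 6, and at 197, 245 and 226 CPM in control libraries 1 to 3. The 3 groups did not overlap, with depleted lowest and control highest, an order that 1.33% of the 12925 genes showed, Comp among them. Cytl1 was selected for lower levels in Cx3cr1 Cx43-/- than in control nodes, which is part of this order. The share therefore does not measure how unusual Cytl1 is. Cx3cr1 Cx43-/- nodes had 0.429 of the control mean, a log2 difference of -1.23 (SE 0.20). These are the values that chose the gene. Depleted nodes had 0.234 of the control mean, a log2 difference of -2.08 (SE 0.20). Depleted against Cx3cr1 Cx43-/- nodes differed by -0.85 (SE 0.20) on the log2 scale. Both of these share libraries with the contrast that chose Cytl1 and are given without a test as well. With median-of-ratios scaling they were -1.59 and -0.29, and the difference between Cx3cr1 Cx43-/- and control nodes was -1.30. Leaving out each library in turn gave -1.14 to -1.37 for the last.

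Just outside the selection, the next gene by p among those lower in Cx3cr1 Cx43-/- nodes was Myoc, which encodes the secreted glycoprotein myocilin. Myoc stood at 19.97, 15.7 and 17.6 CPM in depleted, 24.8, 27.1 and 35.3 CPM in Cx3cr1 Cx43-/- and 59.4, 51.3 and 51.2 CPM in control libraries, and its log2 difference between Cx3cr1 Cx43-/- and control was -0.89 (SE 0.21). Myoc was also the gene whose pattern lay nearest to that of Cytl1. Nearness was the root mean square difference of log2(CPM + 0.5), each gene centred on its own mean over the 9 libraries, among 11493 other named genes with a mean of at least 1 CPM. It was 0.32 for Myoc, 0.33 for the lipoxygenase gene Alox8, 0.37 for Cend1, 0.37 for the ephrin receptor gene Ephb1 and 0.38 for Ano8. These 5 genes were picked for this likeness, so it is a description. Chad, at 0.42 and rank 13, was the nearest of the other 7 cartilage-type genes, Fmod lay at rank 75 and Comp at rank 279, and Prg4 was among the least alike, at rank 11455.

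Depletion of macrophages was compared with control to ask what changed in the node when these cells were lost. Among the 7 cartilage-type genes tested, Chad, Fmod and Comp fell and Prg4 rose, while Acan, Sox9 and Cilp did not pass the test. Of all 12925 genes 33.0% were called lower and 3.23% higher, 36.2% in all, so 3 of 7 genes lower was near the background. With median-of-ratios scaling, which brought the median log2 change of all genes to -0.035, 13% of genes were lower and 13.1% higher, and the calls were Chad and Fmod lower, Prg4 and Cilp higher. In bulk tissue, fewer cells of a type and less RNA per cell cannot be told apart.

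Chad encodes chondroadherin, a leucine-rich repeat protein of cartilage that binds collagen and integrins. It stood at 35.3, 22.7 and 28.7 CPM in depleted libraries, against 90.0, 178 and 135 CPM in control. The highest depleted library was below the lowest control library, as for 38.0% of all genes, Fmod and Comp among them. The log2 change was -2.17 (SE 0.24, limma adjusted p = 8.94e-07), which is -1.68 relative to the median of all genes, and the adjusted p was at most 0.00257 over all alternatives.

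Fmod encodes fibromodulin, a small leucine-rich proteoglycan that steers collagen fibril assembly. It stood at 44.2, 37.0 and 66.9 CPM in depleted libraries, against 125, 207 and 177 CPM in control, without overlap. The log2 change was -1.78 (SE 0.23, limma adjusted p = 6.78e-06), or -1.30 relative to the median of all genes. Fmod and Chad were each other's nearest gene among the 8 in pattern over the 9 libraries, at a root mean square difference of 0.29.

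Comp encodes cartilage oligomeric matrix protein, a member of the thrombospondin family that binds collagen fibrils. It stood at 134, 154 and 169 CPM in depleted libraries, against 203, 355 and 279 CPM in control, also without overlap. The log2 change was -0.84 (SE 0.22, limma adjusted p = 0.00474), of which -0.36 remained relative to the median of all genes. The call did not hold once columns were rescaled to the same sum (adjusted p = 0.113), with median-of-ratios scaling (adjusted p = 0.302) and with quantile normalization (adjusted p = 0.0835). Control library 2 was the highest of the controls for Cytl1, Comp, Chad and Fmod alike, and without it the change of Comp was -0.65.

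Acan encodes aggrecan, the large proteoglycan that holds water in cartilage. It was low throughout, at 1.62, 0.94 and 2.93 CPM in depleted libraries, which correspond to about 94, 49 and 190 reads, against 4.99, 3.18 and 3.0 CPM in control. The groups did not overlap, as for 38.0% of all genes in this direction, but the log2 change of -0.92 (SE 0.36), or -0.43 relative to the median of all genes, did not pass (limma adjusted p = 0.0514). Over the alternatives the change of Acan lay between -1.47 with library quality weights (adjusted p = 0.00324) and -0.37 with quantile normalization (adjusted p = 0.482). It also passed with a pseudocount of 2 (-0.60, adjusted p = 0.0440) and without depleted library 9, the highest of its group (-1.24, adjusted p = 0.0147).

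Prg4 encodes lubricin, the lubricating glycoprotein of joint surfaces and tendon sheaths. It stood at 929, 446 and 567 CPM in depleted libraries, against 89.2, 99.9 and 121 CPM in control, 6.27 times the control mean. The lowest depleted library was above the highest control library, as for 3.61% of all genes in this direction. The log2 change was 2.58 (SE 0.24, limma adjusted p = 4.81e-08), or 3.07 relative to the median of all genes, and it ranged from 2.29 to 3.07 over all alternatives, passing in each. Markers of mesothelial cells, which line the heart surface, were set beside it. Of 11 tested mesothelial and epicardial markers 2 were higher (Aldh1a2 and C3) and 0 lower, where 3.23% of all genes were higher and 33.0% lower. The other 12 listed markers without C3 summed to 16.1 to 37.2 CPM in depleted and 11.3 to 58.0 CPM in control libraries, and none was at 0 in all 3 libraries of a group. Their part in the rise of Prg4 was not tested.

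Cilp encodes cartilage intermediate layer protein, a matrix protein that fibroblasts of the heart also make. It stood at 89.2, 86.7 and 110 CPM in depleted libraries, against 66.7, 90.7 and 94.95 CPM in control, with overlap. The log2 change was 0.19 (95% interval -0.24 to 0.62, limma adjusted p = 0.485), or 0.67 above that median. With median-of-ratios scaling the change was 0.68 and passed (adjusted p = 0.0360).

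Sox9 stood at 8.18, 5.16 and 6.02 CPM in depleted libraries, against 13.1, 7.51 and 8.91 CPM in control. The groups overlapped, and the log2 change of -0.56 (95% interval -1.13 to 0.01) did not pass (limma adjusted p = 0.115). Relative to the median of all genes it was -0.072. Over the alternatives the change of Sox9 lay between -0.85 with library quality weights (adjusted p = 0.0181) and -0.053 with quantile normalization (adjusted p = 0.883). It was -0.34 without control library 1, the highest of its group (adjusted p = 0.437), and -0.73 without depleted library 7, the highest of the depleted (adjusted p = 0.0358).

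**Figure D2:**
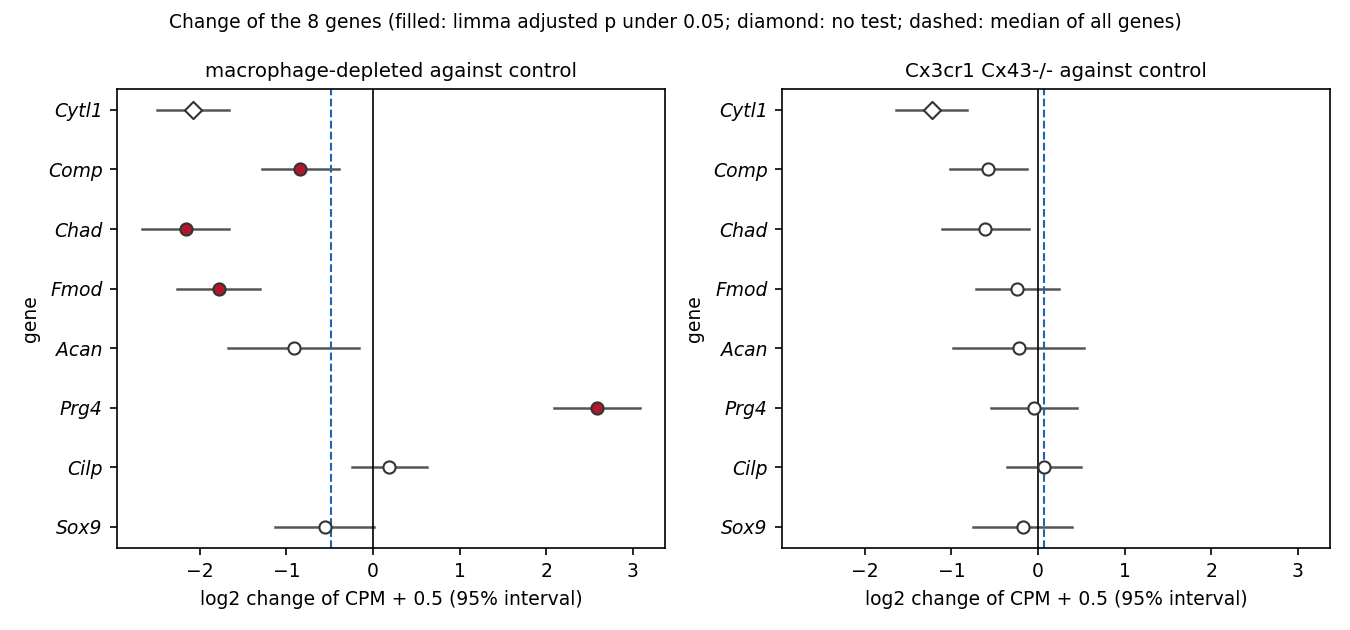
Log2 change of CPM + 0.5 (horizontal axes) of the 8 genes (vertical axes) for macrophage-depleted against control nodes, left, and Cx3cr1 Cx43-/- against control nodes, right, with 95% intervals of the limma fit. Filled points passed an adjusted p of 0.05, diamonds mark Cytl1, which has no test, and the dashed line is the median of all genes, at -0.49 on the left and 0.072 on the right.

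Ratios of these genes within a library do not depend on the CPM denominator. For groups of 3, no exact permutation p under 0.1 is possible for a single ratio, so the values stand without a test. The Prg4 to Cilp ratio was 10.4, 5.14 and 5.14 in depleted, 1.03, 1.39 and 1.02 in Cx3cr1 Cx43-/- and 1.34, 1.10 and 1.27 in control libraries. All depleted libraries were above all others. The Chad to Comp ratio was 0.264, 0.147 and 0.170 in depleted, 0.394, 0.461 and 0.549 in Cx3cr1 Cx43-/- and 0.443, 0.502 and 0.482 in control libraries. The Fmod to Comp ratio was 0.330, 0.240 and 0.397 in depleted, 0.753, 0.726 and 0.830 in Cx3cr1 Cx43-/- and 0.614, 0.582 and 0.636 in control libraries. Chad and Fmod were thus lower relative to Comp in every depleted library than in any other, and Fmod was higher relative to Comp in every Cx3cr1 Cx43-/- library than in any control library. The Cytl1 to Comp ratio was 0.408, 0.314 and 0.317 in depleted, 0.497, 0.632 and 0.439 in Cx3cr1 Cx43-/- and 0.969, 0.689 and 0.811 in control libraries, again without overlap between the groups.

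**Figure D3:**
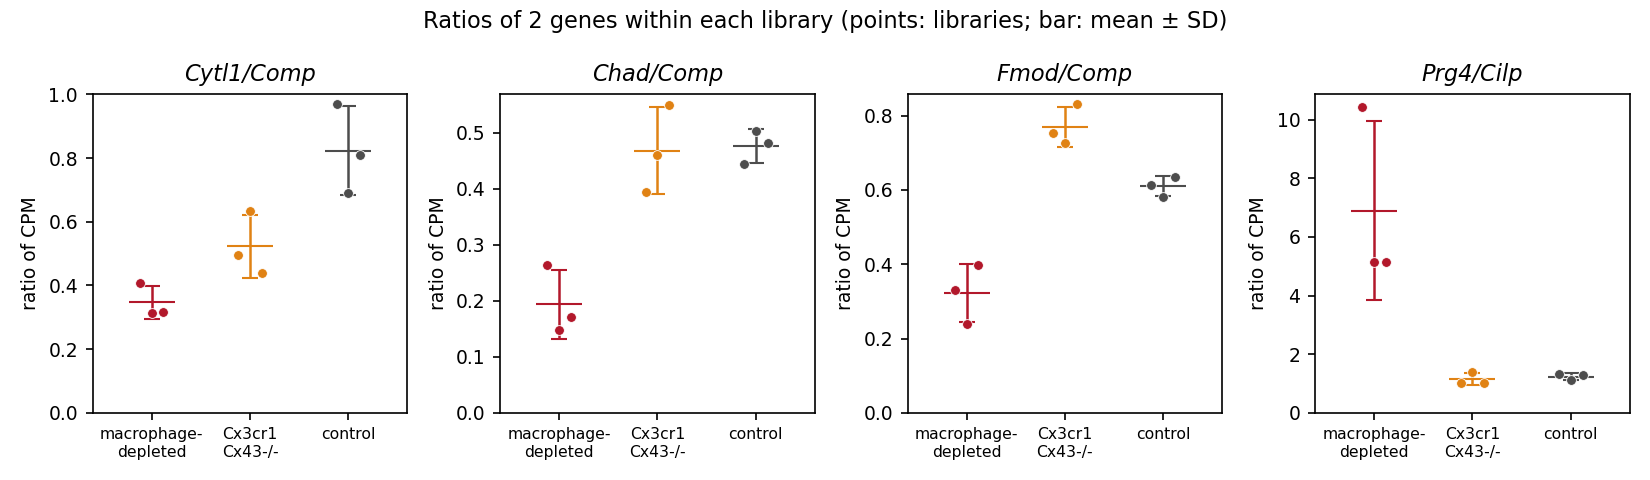
Ratio of the CPM of a gene pair within each library (vertical axes, each from 0) in macrophage-depleted, Cx3cr1 Cx43-/- and control nodes, with a point for each library and a bar for the mean ± SD of 3. The Prg4 to Cilp ratio is 5.14 to 10.4 in depleted libraries and at most 1.39 in the others.

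Deletion of connexin 43 in Cx3cr1-expressing cells was compared with control to ask what its loss changed in the node. Limma called 0 of the 7 genes tested, and 2 of 7, Comp and Chad, had an unadjusted p under 0.05, as did 1.48% of all genes. Of the 12925 genes 0.00774% were called, which is Cytl1 itself, the gene this comparison selected. None of the 7 lay above control without overlap, as 5.94% of all genes did.

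Comp stood at 176, 183 and 190 CPM in Cx3cr1 Cx43-/- libraries, against 203, 355 and 279 CPM in control. The groups did not overlap, as for 3.0% of all genes in this direction, and the log2 change was -0.57 (95% interval -1.02 to -0.13, limma adjusted p = 1). Without control library 2 it was -0.38. Chad stood at 69.3, 84.3 and 104 CPM, against 90.0, 178 and 135 CPM in control, with overlap and a log2 change of -0.61 (95% interval -1.11 to -0.11, limma adjusted p = 1). The change of Chad was -0.37 without control library 2 and -0.33 with library quality weights.

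For the remaining genes the intervals included 0. Fmod changed by -0.24 (95% interval -0.72 to 0.24), Acan by -0.22 (-0.98 to 0.53), Sox9 by -0.18 (-0.75 to 0.39), Prg4 by -0.046 (-0.54 to 0.45) and Cilp by 0.073 (-0.36 to 0.50) on the log2 scale, each with a limma adjusted p of 1. Without control library 2 the change of Fmod was -0.082, without control library 1 it was -0.45, and with library quality weights -0.054. Without control library 1 the change of Acan was -0.019. Prg4 stood at 82.2, 114 and 104 CPM in Cx3cr1 Cx43-/- libraries, within the range of control libraries but for the lowest. Fibroblast markers, 14 genes with none at 0, summed to 9209 to 10244 CPM in Cx3cr1 Cx43-/- and 7542 to 9305 CPM in control libraries, and their part in these values was not tested.

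The depleted nodes were last set against the Cx3cr1 Cx43-/- nodes, whose macrophage markers summed to 465 to 627 CPM. Of the 7 genes Chad and Fmod fell and Prg4 rose, where 40.7% of all genes were lower and 2.69% higher. Chad changed by -1.56 (SE 0.24, limma adjusted p = 5.02e-05), Fmod by -1.54 (SE 0.23, adjusted p = 3.55e-05) and Prg4 by 2.63 (SE 0.24, adjusted p = 3.83e-08) on the log2 scale. With median-of-ratios scaling Chad was at -0.997 and Fmod at -0.978, and both passed. The median of all genes was -0.58. Comp, at 134 to 169 CPM in depleted and 176 to 190 CPM in Cx3cr1 Cx43-/- libraries, did not overlap, as for 50.6% of all genes in this direction, and did not pass (log2 change -0.27, limma adjusted p = 0.312). Its direction turned with columns rescaled to the same sum (0.12), with median-of-ratios scaling (0.30) and with quantile normalization (0.057). Prg4 lay above without overlap, as 3.39% of all genes did. This comparison shares its depleted libraries with the first and its Cx3cr1 Cx43-/- libraries with the second.

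Other genes of the same matrix were described from lists, without the 8 genes themselves. Of 16 tested cartilage matrix genes 7 fell and 1 rose in depleted against control nodes, with a median log2 change of -0.97 against -0.49 for all genes. With median-of-ratios scaling 6 were lower and 2 higher. Cilp2, the paralogue of Cilp, stood at 9.15, 12.3 and 13.2 CPM in depleted libraries, against 92.5, 57.7 and 74.7 CPM in control (log2 change -2.64, SE 0.22, limma adjusted p = 8.34e-09), whereas Cilp itself did not pass. The fibrillar collagen chain gene Col11a2 fell by 2.04, the keratan sulfate proteoglycan gene Ogn by 1.25 and Prelp, which anchors matrix to basement membranes, by 1.15 on the log2 scale. The gene that rose was Col2a1, named after its values were seen, at 5.13, 2.80 and 3.60 CPM in depleted libraries against 2.16, 0.00 and 1.03 CPM in control (limma adjusted p = 0.00777), and its call was lost without a filter (adjusted p = 0.0869) and with library quality weights (adjusted p = 0.0647).

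Of 13 small leucine-rich proteoglycans and relatives 5 fell and 0 rose, near the 33.0% of all genes called lower. Their median of -0.32 was above that of all genes. With median-of-ratios scaling 5 were lower and 2 higher, and 1 was higher without control library 1 or depleted library 9. Ogn, Prelp, Ecm2 (-1.14), the chondroadherin-like gene Chadl (-1.64) and Kera, the corneal proteoglycan keratocan, were lower. Kera stood at 0.16, 0.02 and 0.00 CPM in depleted libraries, against 0.96, 2.19 and 1.06 CPM in control (limma adjusted p = 0.00402), and its call was lost with quantile normalization (adjusted p = 0.158).

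Of 10 chondrogenic regulators 3 fell and 0 rose, where 33.0% of all genes fell and 3.23% rose. Their median of -0.53 was near that of all genes. Wnt5a, a ligand that acts in growth plate and limb, stood at 3.66, 1.80 and 2.69 CPM in depleted libraries, against 11.7, 4.72 and 11.4 CPM in control (log2 change -1.54, limma adjusted p = 0.00150). Sox6, a partner of Sox9 in chondrocytes, changed by -0.74 (adjusted p = 0.0312) and the ubiquitin ligase gene Wwp2 by -0.53 (adjusted p = 0.0483), which with median-of-ratios scaling became -0.28 and -0.050 and did not pass. Both calls were also lost in a fit of only these 2 groups, without any 1 of the 6 control and Cx3cr1 Cx43-/- libraries, and without depleted library 9 for Sox6 or depleted library 8 for Wwp2. Sox5, the other partner of Sox9, changed by -0.90 and did not pass (adjusted p = 0.0552), though it did without control library 3 (0.0291) or depleted library 8 (0.0211).

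Of 11 tendon and fibrous tissue genes 3 fell and 2 rose, where 33.0% of all genes fell and 3.23% rose. Their median of -0.19 was above that of all genes. With median-of-ratios scaling 2 were lower and 4 higher. Thbs4, a thrombospondin of tendon in the same family as Comp, stood at 308, 186 and 171 CPM in depleted libraries, against 66.4, 88.9 and 86.6 CPM in control (log2 change 1.41, SE 0.22, limma adjusted p = 6.50e-05). Thbs4 rose where Comp fell on the deposited scale. Angptl7, the other gene that rose, was named after its values were seen, and its groups overlapped (log2 change 0.81, adjusted p = 0.0170), and its call was lost without control library 1 (adjusted p = 0.129), control library 3 (0.0508), depleted library 7 (0.0718) or depleted library 8 (0.0553). The fibril-associated collagen gene Col14a1 fell by 0.79 on the deposited scale, and its call was lost with median-of-ratios scaling (adjusted p = 0.342) and without control library 1 (adjusted p = 0.0964).

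Of 17 genes of valve interstitial cells and valve formation 5 fell and 2 rose, where 33.0% of all genes fell and 3.23% rose. Their median of -0.33 was above that of all genes. With median-of-ratios scaling 2 were lower and 3 higher. The secreted Wnt inhibitor gene Wif1 stood at 6.04, 3.95 and 12.1 CPM in depleted libraries, against 27.9, 46.5 and 49.8 CPM in control (log2 change -2.51, limma adjusted p = 1.90e-06). The transcription factor genes Prox1 (-1.80) and Tbx20 (-1.15) were lower, and Tbx20 lost its call with median-of-ratios scaling (adjusted p = 0.110). Cthrc1, a secreted protein of remodelling matrix, rose by 2.27 on the log2 scale, to 4.14, 4.87 and 9.02 CPM in depleted libraries, against 0.69, 0.78 and 0.89 CPM in control. In Cx3cr1 Cx43-/- libraries it stood at 0.78, 0.34 and 1.03 CPM. Cthrc1 thus passed the filter only through the depleted libraries, where it was high, so its rise is a description. The count of 2 that rose includes Cthrc1 and is therefore not measured against the 3.23% of all genes. Postn, named after its values were seen, rose by 0.57 on the deposited scale (limma adjusted p = 0.0370), a call lost without any 1 of the 6 control and Cx3cr1 Cx43-/- libraries or without depleted library 9.

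Among 12 genes that cleave aggrecan and other matrix or restrain that cleavage, 2 fell and 2 rose, where 33.0% of all genes fell and 3.23% rose. Their median of -0.17 was above that of all genes. The stromelysin gene Mmp3 stood at 166, 315 and 164 CPM in depleted libraries, against 26.2, 24.9 and 22.9 CPM in control (log2 change 3.03, SE 0.24, limma adjusted p = 2.20e-09). The aggrecanase gene Adamts1 rose by 1.92 on the log2 scale, to 165, 92.2 and 49.9 CPM in depleted libraries, against 27.4, 21.9 and 22.6 CPM in control. Adamts7, whose human protein cleaves the Comp protein in vitro, fell by 1.86, and the serine protease gene Htra1 by 1.25. In Cx3cr1 Cx43-/- against control nodes limma called 0 of the 69 tested genes of these 6 lists. At an unadjusted p under 0.05 it had 1 lower and 8 higher, where 1.48% of all genes had such a p. The lower gene was Mmp3, at 11.8, 15.2 and 14.4 CPM in Cx3cr1 Cx43-/- libraries (log2 change -0.82), without overlap with control. Because the lists were chosen with earlier results of these data known, these counts are a description.

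**Figure D4:**
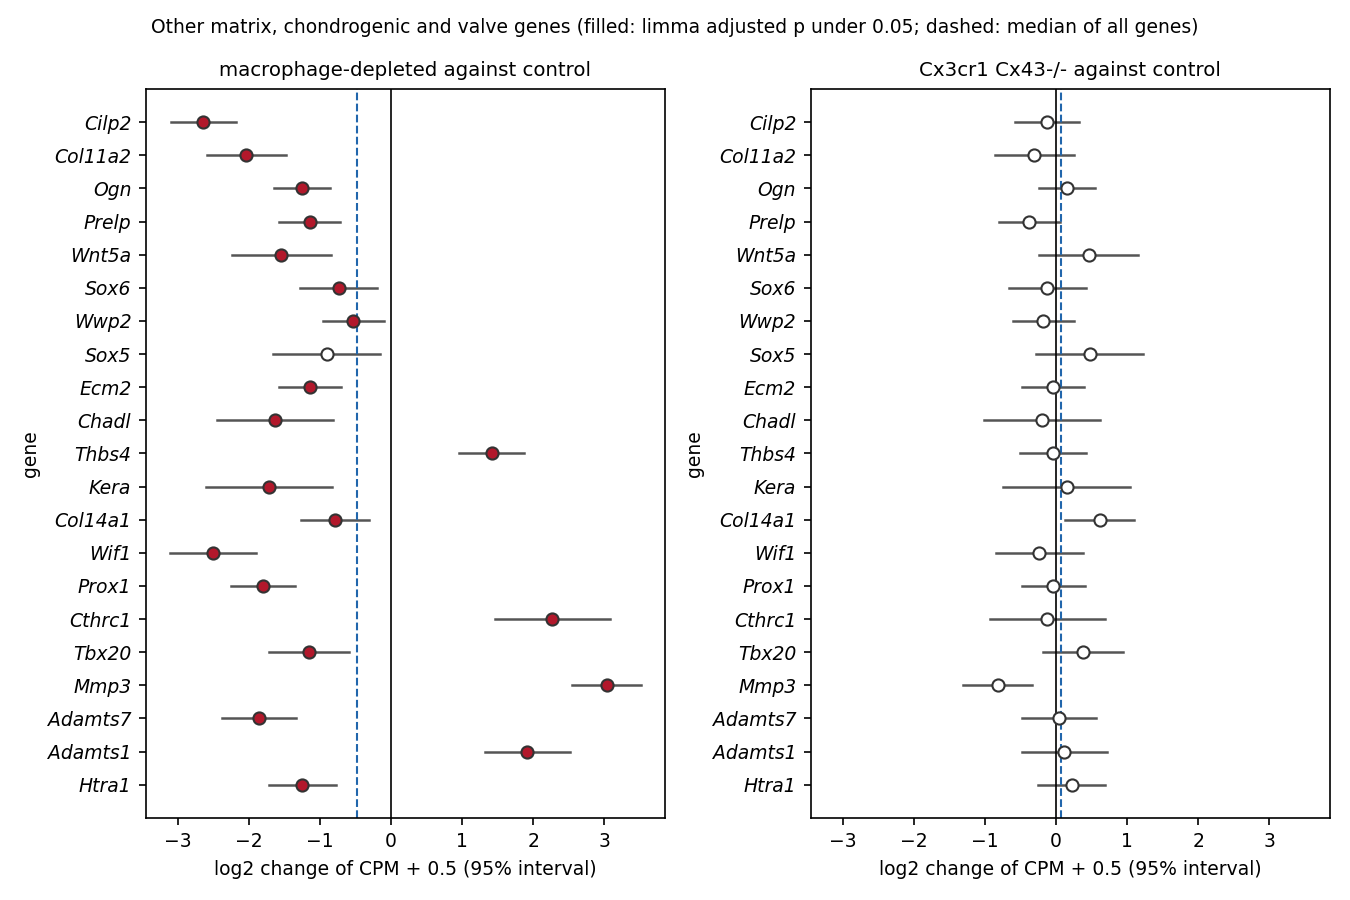
Log2 change of CPM + 0.5 (horizontal axes) of 21 other matrix, chondrogenic, valve and protease genes (vertical axes) for macrophage-depleted against control nodes, left, and Cx3cr1 Cx43-/- against control nodes, right, with 95% intervals of the limma fit. Filled points passed an adjusted p of 0.05, and the dashed line is the median of all genes. On the left, Thbs4, Cthrc1, Mmp3 and Adamts1 lie above 0, and on the right no point is filled. The filled point of Cthrc1 is a description, because this gene passed the filter only through the depleted libraries.

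Levels of other cell types moved between the same groups. In depleted against control nodes 33.0% of all genes were called lower and 3.23% higher. Of 15 conduction genes 12 fell, and of 14 fibroblast markers 1 fell and 1 rose. Summed fibroblast levels were 5039 to 6653 CPM in depleted and 7542 to 9305 CPM in control libraries, with no marker at 0. Summed cardiomyocyte markers stood at 16912 to 28542 CPM in depleted and 32232 to 35729 CPM in control libraries. Of these 13 markers 4 were called lower, near the share of all genes. Schwann and neuron markers summed to 84.4 to 99.9 CPM in depleted and 130 to 153 CPM in control libraries, and blood markers to 11.4 to 17.1 CPM in depleted and 30.3 to 37.5 CPM in control libraries. The fibroblast, cardiomyocyte, Schwann and neuron, and blood sums were each lower in every depleted library than in any control library. Of 5 tested blood markers only Pf4 was called lower, at 4.18, 6.37 and 6.65 CPM in depleted and 26.0, 21.0 and 23.9 CPM in control libraries. The globin genes overlapped, with Hbb-b1 at 8.47, 4.7 and 2.88 CPM in depleted and 2.91, 9.06 and 4.2 CPM in control libraries. The lower blood sum thus rests on Pf4. Adipocyte markers summed to 533, 939 and 381 CPM in depleted and 398, 341 and 389 CPM in control libraries, with depleted library 8 highest. The Fmod to Dcn ratio, which sets Fmod beside decorin, a fibroblast proteoglycan, was 0.0415, 0.0358 and 0.0855 in depleted and 0.102, 0.187 and 0.142 in control libraries, so Fmod was lower relative to Dcn in each depleted library. The Prg4 to Dcn ratio was 0.872, 0.431 and 0.725 in depleted and 0.0732, 0.0903 and 0.0966 in control libraries. The part of dissection and of other cell types in these values was not tested.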

How the data were processed

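Total RNA of microdissected nodes was made into strand-directional libraries, per the labels' protocols. The submitters' processing notes name STAR 2.3.0, HTSeq 0.6.0, edgeR and build mm9, without roles. The authors deposited CPM rounded to 2 decimals. Values up to 3 CPM equalled whole multiples of 1 read within that rounding, with 52.1 to 64.9 reads per 1 CPM, and were not turned back into counts.

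Values were taken as log2(CPM + 0.5), which understates changes of low genes. One limma model (version 3.58.1, R 4.3.3), tested on simulated data, held all 9 libraries, with trended empirical Bayes variance and 3 two-sided contrasts. P-values were adjusted by Benjamini-Hochberg over the 12925 genes that passed the filter and called under 0.05. SE and intervals are those of the moderated fit. Figures were drawn with matplotlib 3.10.9.

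Beside the 8 genes, up to 4 genes per list with the smallest p in depleted against control were named, and the 5 genes most like Cytl1. The genes and lists were chosen with earlier results of these data known. 0 pairs of libraries held identical values. Alternatives were other pseudocounts (0.1, 2) and filters (none, or a mean of 5 CPM), other scalings, fits of only 2 groups, library quality weights, robust empirical Bayes, and leaving out each library in turn.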

Additional observations from a re-analysis of the deposited data

How the results depend on the processing

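The calls of Chad and Fmod (lower) and Prg4 (higher) in both comparisons with depleted nodes held under every alternative tried. Of the 7 tested genes, library quality weights called 5 lower in depleted against control nodes and 4 lower in depleted against Cx3cr1 Cx43-/- nodes, adding Acan and Sox9. Median-of-ratios scaling called 2 higher in each of these, adding Cilp. No other count of these genes moved by over 1.5 times, and in Cx3cr1 Cx43-/- against control it was 0 throughout. The cause was not tested.

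None of the log2 changes that turned sign passed in the main fit or in the setting that turned it. For Cx3cr1 Cx43-/- against control these were Sox9 in leave-one-out fits (-0.34 to 0.037, above 0 without control library 1), Cilp with median-of-ratios scaling (-0.0045) and in leave-one-out fits (-0.085 to 0.17), and Prg4 with quality weights (0.097) and in leave-one-out fits (-0.15 to 0.090). For depleted against Cx3cr1 Cx43-/- they were Comp with columns rescaled to the same sum (0.12), median-of-ratios (0.30) and quantile normalization (0.057), Sox9 with median-of-ratios (0.15) and quantile normalization (0.21), and Cilp with quality weights (-0.061). In that comparison Sox9 passed without turning with quality weights (-0.52, limma adjusted p = 0.0424), and Cilp with median-of-ratios scaling (0.68, limma adjusted p = 0.0347). For depleted against control, Itgam (0.31) turned with quality weights (-0.59) and in leave-one-out fits (-0.28 to 0.87).

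Over all genes, depleted against control had 4678 calls, and 2664 without control library 1. Depleted against Cx3cr1 Cx43-/- had 5604, and 3302 without Cx3cr1 Cx43-/- library 5, 3365 with median-of-ratios scaling and 3356 with quantile normalization. Columns rescaled to the same sum gave 2534 lower and 1136 higher for depleted against control, where the deposited scale gave 4261 and 417. Cx3cr1 Cx43-/- against control had 1 call (Cytl1), and between 0 and 4 under the alternatives. No paired analysis was possible because the groups share no replicate number. With 3 libraries a group and no batch in the labels, differences of dissection cannot be told apart from the groups.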

Other observations

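Eln and Fbn1, matrix genes named after their values were seen, were higher in Cx3cr1 Cx43-/- than in control libraries without passing the adjusted test. Elastin (Eln) stood at 126, 69.7 and 113 CPM in Cx3cr1 Cx43-/- libraries, against 52.0, 41.7 and 53.3 CPM in control (log2 change 1.03, limma adjusted p = 0.466), and fibrillin (Fbn1) at 126, 110 and 145 CPM, against 87.5, 69.6 and 75.6 CPM in control (log2 change 0.71, limma adjusted p = 1). Neither overlapped with control, as for 5.94% of all genes. Higher levels were not particular to these 2 genes. Between the same groups Col3a1 changed by 0.78 without overlap, Podn by 0.74, Col14a1 by 0.61, Vcan by 0.58 and Postn by 0.53 on the log2 scale. None of them passed the adjusted test. Log2 changes nearer 0 were -0.0038 for Dcn, 0.075 for Lum, 0.15 for Col1a1, 0.15 for Fbln1 and 0.19 for Dpt.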
